A study of Mus musculus with 6 samples.

Results

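The genes described here are the 10 mouse genes that build, load and switch on major histocompatibility complex (MHC) class II, the surface molecule that shows peptides to CD4 T cells: Cd74, H2-Aa, H2-Ab1, H2-Eb1, H2-DMa, H2-DMb1, H2-DMb2, H2-Oa, H2-Ob and Ciita. They were taken by gene symbol, and all 10 were found among the 56859 genes of the count table. RNA was sequenced from the spinal cords of mice labelled WT, 6 weeks after the cord was contused at T10. The injury + AZ876 group (n = 3) was injected intraperitoneally with AZ876, which activates liver X receptors, at 5 mg/kg in 100 µL daily for 1 week following injury. The injury group (n = 3) had the same contusion without AZ876, and controls were injected with solvent, per the labels' protocols. Both groups were injured, and uninjured cord was not analysed here. The labels give no strain, sex or age, carry 1 batch name for all samples, and do not say whether each library came from its own animal.

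MHC class II is a pair of chains, alpha and beta, made in the endoplasmic reticulum and held there by the invariant chain, which blocks the peptide groove and guides the complex to endosomes. There proteases trim the invariant chain to a short fragment, and the DM molecule exchanges that fragment for a peptide, a step that the DO molecule restrains. Transcription of most of these genes depends largely on the coactivator CIITA. CIITA binds no DNA itself but docks on a complex of RFX, CREB and NF-Y factors at the X and Y boxes of promoters. In the nervous system class II is carried mainly by macrophages, dendritic cells and B cells, and by microglia once they are activated.

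Promoter sequence is shown because CIITA acts at promoter boxes of this kind. RefSeq promoters on GRCm38.p6, running from 250 bases before a gene's start to 50 bases after it, were at hand for 7 of the 10 genes. In these windows the letters TGATTGG, the core of the Y box, and GNAAC, the core of the X1 box, were searched on both strands. The letters were chosen with these promoters in view. In the sequences below, written 5′ to 3′ on the gene's strand, capitals mark GNAAC where it stood 20 to 30 bases before TGATTGG, and TGATTGG itself.
H2-Aa: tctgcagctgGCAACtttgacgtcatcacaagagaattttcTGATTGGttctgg
H2-Eb1: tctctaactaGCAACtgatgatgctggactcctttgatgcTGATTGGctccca
H2-DMb1: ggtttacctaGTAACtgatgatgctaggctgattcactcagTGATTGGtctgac
H2-DMb2: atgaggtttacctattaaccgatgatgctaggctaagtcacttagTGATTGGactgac
H2-Oa: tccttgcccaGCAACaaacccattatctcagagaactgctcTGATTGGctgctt
H2-Ob: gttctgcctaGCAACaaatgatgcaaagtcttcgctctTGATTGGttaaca

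These stretches lie at chr17:34287861-34287914 (minus strand) for H2-Aa, chr17:34305766-34305818 for H2-Eb1, chr17:34153087-34153140 for H2-DMb1, chr17:34145112-34145169 for H2-DMb2, chr17:34092293-34092346 for H2-Oa and chr17:34238808-34238858 for H2-Ob, the last 5 on the plus strand. TGATTGG was found in 6 of the 7 genes' windows, always on the gene's strand, and in 7.82% of all 32851 windows. GNAAC alone stood in 84.8% of windows and so tells little. Together at the stated spacing, in that order on the gene's strand, the letters stood in the windows of 5 of the 7 genes, and in 0.137% of all windows (0.323% when either strand is counted). The spacing between the letters was 26 bases in H2-Aa, H2-DMb1 and H2-Oa, 25 in H2-Eb1 and 23 in H2-Ob. H2-DMb2 held TGATTGG without GNAAC at that spacing, and the windows of both RefSeq starts of H2-DMa held neither the pair nor TGATTGG.

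Levels are given as CPM, that is, read counts scaled to library size after trimmed-mean (TMM) normalisation. The libraries held 14067649 to 20211175 counts. On the first principal component of all genes, with 55.4% of the variance, AZ876 replicate 1 (−7.17) and injury replicate 3 (6.31) stood between the other AZ876 libraries (44.2 and 49.5) and the other injury libraries (−40.6 and −52.3). Markers of spinal cord tissue were present in each library, with Mbp, a myelin gene, at 11690 to 14828 CPM with AZ876 and 15044 to 16813 CPM with injury, and Gfap, an astrocyte gene, at 6925 to 12052 CPM with AZ876 and 7554 to 10280 CPM with injury.

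All 10 class II genes had a higher mean level in the AZ876 group than in the injury group, a direction that 50.5% of all genes tested had. For 9 of them each AZ876 library was above each injury library, and for 0 below. The mean was 2.18 to 2.65 times as high for Cd74, the 3 classical chain genes, H2-DMb2 and Ciita, and 1.32 to 1.61 times as high for H2-DMa, H2-DMb1, H2-Oa and H2-Ob. None of the 10 passed edgeR's quasi-likelihood test after adjustment over all 17599 genes tested, at a threshold of 0.05, and that test called 0% of all genes. At an unadjusted p under 0.05, 8 of the 10 were higher, where 7.98% of all genes were. Groups that did not overlap, were seen for 10.2% of all genes with AZ876 higher and for 8.64% with AZ876 lower. The median log2 fold change was 1.20 over the 10 genes, against 0.00 over all genes tested, and 6 of the 10 had a log2 fold change of at least 1, as 2.89% of all genes did. All 10 passed the filter on low counts in either group alone. In bulk tissue, more cells that carry class II and more class II RNA per cell cannot be told apart.

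**Figure D1:**
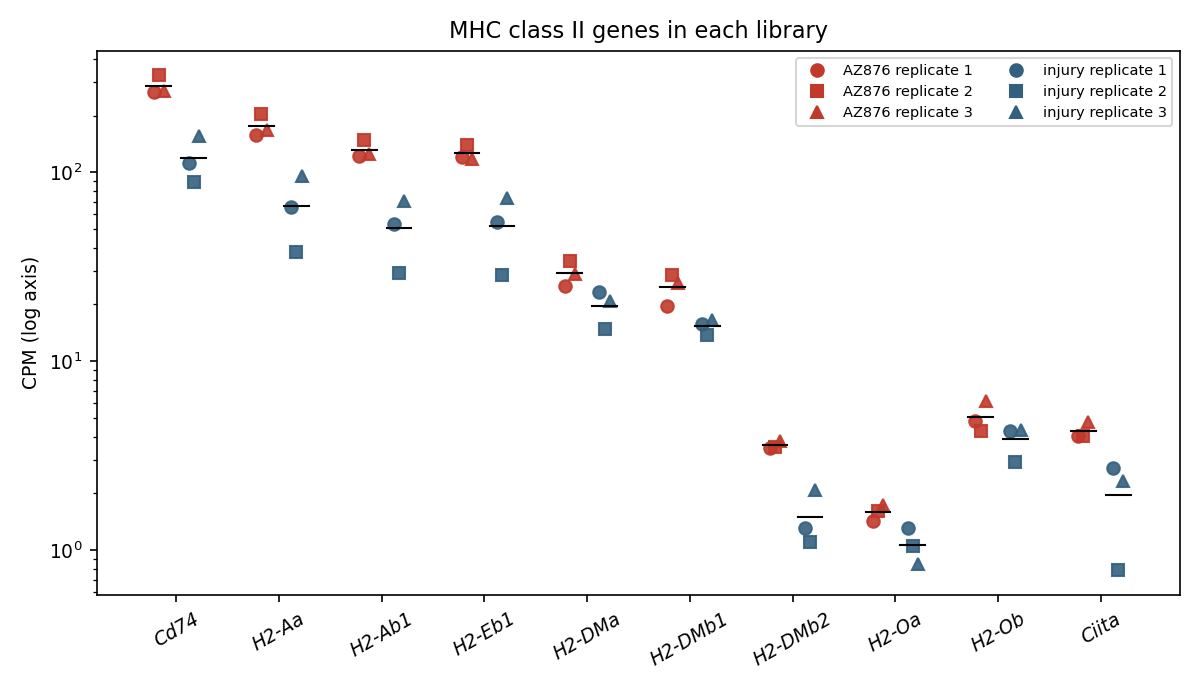
Level of each MHC class II gene in every library, in CPM on a log axis. AZ876 libraries are on the left of each pair and injury libraries on the right, and black bars are group means. The groups separate for each gene except H2-Ob, and injury replicate 2 is the lowest library for most genes.

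Cd74 encodes the invariant chain and lies on chromosome 18 (60936920 to 60945724, plus strand, ENSMUSG00000024610, in the coordinates of the count table, whose build the sources used here do not name). It was at 266, 326 and 271 CPM in AZ876 replicates 1, 2 and 3, against 112, 89.5 and 156 CPM in injury replicates 1, 2 and 3. The lowest AZ876 library was thus above the highest injury library, injury replicate 3. Its log2 fold change of 1.27 ± 0.21 (SE, n = 3 each) had an unadjusted p of 0.000353, the fifth smallest of all genes, and a Benjamini-Hochberg adjusted p of 0.330 in the quasi-likelihood test of edgeR. A two-sided exact permutation test of log2 CPM gave p = 0.1, the smallest that 3 against 3 libraries allow.

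H2-Aa, H2-Ab1 and H2-Eb1 encode the classical chains, H2-Aa and H2-Ab1 the alpha and beta chains of I-A, and H2-Eb1 the beta chain of I-E. H2-Aa (chromosome 17, 34501718 to 34506797, minus strand) was at 157, 203 and 167 CPM with AZ876, against 65.9, 37.8 and 95.1 CPM with injury. H2-Ab1 (chromosome 17, 34476663 to 34488393, plus strand) was at 122, 148 and 124 CPM with AZ876, against 53.2, 29.4 and 70.6 CPM with injury. The third gene, H2-Eb1 (chromosome 17, 34524841 to 34535648, plus strand), was at 121, 140 and 118 CPM with AZ876, against 54.6, 28.7 and 72.9 CPM with injury. In each of the 3 genes AZ876 replicate 2 was the highest library, injury replicate 2 the lowest, and the groups did not overlap. The log2 fold changes were 1.41 ± 0.30 for H2-Aa, 1.37 ± 0.29 for H2-Ab1 and 1.28 ± 0.30 for H2-Eb1 (SE), each with an edgeR adjusted p of 0.330 and an exact permutation p of 0.1.

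The AZ876 libraries were spread less widely than the injury libraries for these chains. For H2-Aa the highest library was 1.29 times the lowest with AZ876 and 2.52 times with injury, and for H2-Eb1 it was 1.19 times with AZ876 and 2.54 times with injury. Without injury replicate 2 the log2 fold change was 1.12 for H2-Aa, 1.09 for H2-Ab1 and 0.99 for H2-Eb1, the lowest values when any 1 library was left out. The highest, 1.76, 1.67 and 1.60, came without injury replicate 3.

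The I-E alpha chain gene, H2-Ea, had 0 counts in all 6 libraries, where 3 counts would have been 0.175 to 0.211 CPM with AZ876 and 0.147 to 0.195 CPM with injury. In mouse strains of the b haplotype, C57BL/6 among them, the promoter of this gene is deleted and no I-E reaches the surface, while H2-Eb1 is still transcribed. H2-Eb2, a further beta chain gene next to it, had 8, 9 and 18 counts with AZ876 and 0, 3 and 3 counts with injury, too few to enter the test. Both genes were looked up after the values of the 10 were seen.

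H2-DMa, H2-DMb1 and H2-DMb2 encode the chains of the DM peptide exchanger. H2-DMa (chromosome 17, 34338515 to 34358075, plus strand) was at 25.1, 34.0 and 29.0 CPM with AZ876, against 23.4, 14.8 and 20.9 CPM with injury. H2-DMb1 (34372046 to 34379204, plus strand) was at 19.7, 28.7 and 25.9 CPM with AZ876, against 15.7, 13.8 and 16.5 CPM with injury. For these 2 genes the groups came close, with AZ876 replicate 1 the lowest treated library. H2-DMb2 (34362281 to 34370529, plus strand) was at 3.49, 3.51 and 3.79 CPM with AZ876, against 1.32, 1.10 and 2.08 CPM with injury. Here the groups stood clearly apart, and the AZ876 libraries lay within 1.09 times of each other. The log2 fold changes were 0.58 ± 0.20 for H2-DMa, 0.69 ± 0.18 for H2-DMb1 and 1.27 ± 0.31 for H2-DMb2 (SE), each with an edgeR adjusted p of 0.330.

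The counts of DM genes carry limits from the annotation. Of the stretches of 100 bases in the principal transcript of H2-DMb1 (GENCODE M21), 13.7% also occurred in H2-DMb2, and 13.5% of those of H2-DMb2 occurred in H2-DMb1, so reads from these near-identical copies may be split between them. In the table's coordinates H2-DMa overlaps Brd2, a gene on the opposite strand with 19176 counts over the 6 libraries, by 3094 bases, and the sources used here do not name the strand setting of the counting.

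H2-Oa and H2-Ob encode the chains of DO, the partner that restrains DM and is known mainly from B cells and some dendritic cells. H2-Oa (34311314 to 34314208, plus strand) was at 1.44, 1.62 and 1.75 CPM with AZ876, against 1.32, 1.05 and 0.845 CPM with injury. H2-Ob (34457877 to 34473388, plus strand) was at 4.86, 4.29 and 6.18 CPM with AZ876, against 4.30, 2.94 and 4.36 CPM with injury. H2-Oa did not overlap but rests on 13 to 30 counts a library, and H2-Ob did overlap, since AZ876 replicate 2 was below injury replicates 1 and 3. The log2 fold changes of 0.57 ± 0.31 and 0.40 ± 0.26 (SE) had edgeR adjusted p-values of 0.392 and 0.446 and unadjusted p-values of 0.106 and 0.161, and the exact permutation p was 0.1 for H2-Oa and 0.3 for H2-Ob. The log2 fold change of H2-Ob was 0.24 without injury replicate 2 and also without AZ876 replicate 3. In the table's coordinates BC051537, on the opposite strand, overlaps H2-Oa over its whole length, 2895 bases, and had 4 counts in all. Of the stretches of 100 bases in the principal transcript of H2-Oa, 13.7% also occurred in BC051537. The strand setting of the counting is not named.

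Ciita encodes the coactivator CIITA. It lies on chromosome 16 (10297923 to 10346282, plus strand) and was the least expressed of the 10 per length. It was at 4.04, 4.01 and 4.78 CPM with AZ876, against 2.74, 0.788 and 2.34 CPM with injury. The AZ876 libraries were close together, while injury replicate 2, with 15 counts, was far below the other injury libraries with 56 and 36. Its log2 fold change of 1.13 ± 0.43 (SE) had an edgeR adjusted p of 0.330, and was 0.75 without injury replicate 2 and 1.47 without injury replicate 1. Ciita overlaps Dexi, a gene on the opposite strand with 4179 counts over the 6 libraries, by 25888 bases in the table's coordinates.

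**Figure D2:**
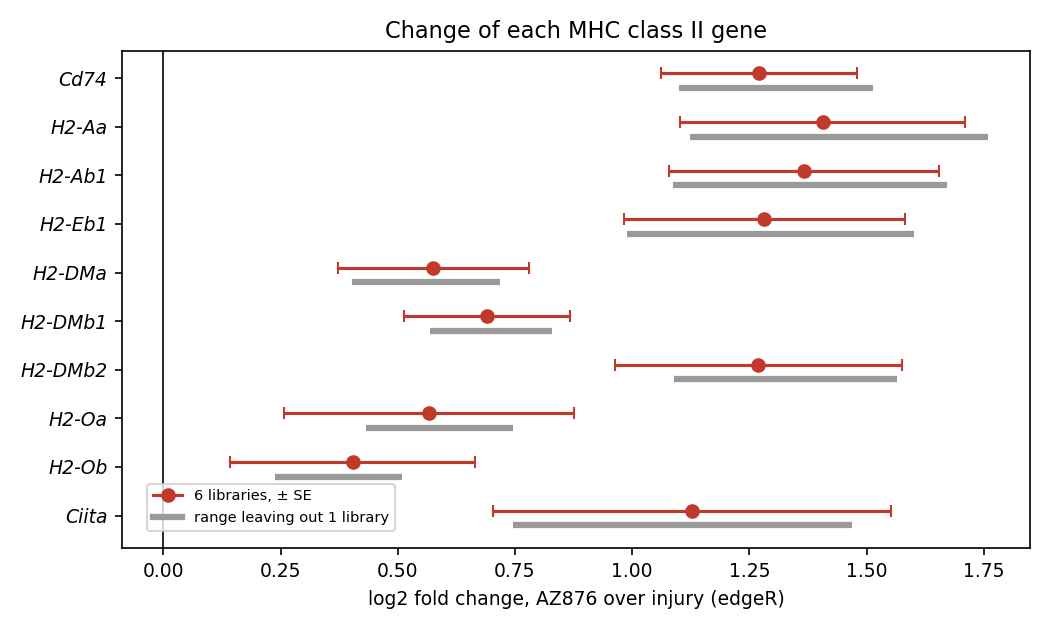
Log2 fold change of AZ876 over injury for each gene from edgeR, with the standard error (points and bars), above the range obtained when any 1 library is left out (grey). The 10 genes lie between 0.40 and 1.41, and the range of none of them reaches 0.

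DESeq2, which called 0.716% of all genes higher at an adjusted p under 0.05, called 5 of the 10: Cd74 (adjusted p of 0.000590), H2-Ab1 (0.00589), H2-Aa (0.00639), H2-Eb1 (0.0164) and H2-DMb2 (0.0454). limma-voom called 0 of the 10 and 0 of all genes after adjustment, and 8 of the 10 at an unadjusted p under 0.05, where 8.96% of all genes were higher. Without AZ876 replicate 1, edgeR called Cd74 alone among the 10 (adjusted p of 0.0450), and none of the 10 without any other library.

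Divided by the length of the principal transcript, the order of levels was led by Cd74 at 204 ± 23.5 CPM per kilobase with AZ876 and 84.6 ± 24.0 with injury (SD, n = 3 each). H2-Aa followed at 156 ± 21.2 with AZ876 and 58.7 ± 25.4 CPM per kilobase with injury, then H2-Ab1 at 109 ± 12.1 with AZ876 and 42.1 ± 17.1 with injury, and H2-Eb1 at 75.8 ± 7.26 with AZ876 and 31.2 ± 13.3 with injury. Neighbours among these 4 lay further apart than either SD with AZ876. With injury this held for Cd74 and H2-Aa, by a narrow margin, and not for the next neighbours. Within every library of both groups, however, the order of these 4 was the same. In injury replicates 1, 2 and 3, H2-Aa was at 58.4, 33.5 and 84.3, H2-Ab1 at 43.9, 24.3 and 58.3, and H2-Eb1 at 32.7, 17.2 and 43.7 CPM per kilobase. H2-DMa (17.7 ± 2.69 with AZ876 and 11.9 ± 2.68 with injury) and H2-DMb1 (17.6 ± 3.27 with AZ876 and 10.9 ± 0.989 with injury), the 2 genes whose products pair, did not differ beyond their spread per kilobase. H2-DMb2 (2.53 ± 0.117 with AZ876 and 1.05 ± 0.361 with injury), H2-Ob (1.91 ± 0.363 with AZ876 and 1.45 ± 0.301 with injury) and H2-Oa (1.47 ± 0.144 with AZ876 and 0.985 ± 0.219 with injury) came next, and their order was not the same in the AZ876 and injury groups. Ciita was lowest, at 0.711 ± 0.0729 CPM per kilobase with AZ876 and 0.326 ± 0.172 with injury.

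Ratios between genes within a library do not depend on how libraries are scaled. Of 10 ratios compared, the ratio of H2-Aa to H2-Ab1 counts was 1.29, 1.36 and 1.34 with AZ876, against 1.24, 1.28 and 1.35 with injury, so the I-A chain genes kept nearly the same proportion in libraries whose H2-Ab1 level ran from 29.4 to 148 CPM. The ratio of H2-Eb1 to H2-Ab1 was 0.996, 0.946 and 0.948 with AZ876, against 1.03, 0.977 and 1.03 with injury. Cd74 to H2-Ab1 stood at 2.19, 2.19 and 2.18 with AZ876, against 2.11, 3.04 and 2.21 with injury, where injury replicate 2 alone had more invariant chain RNA per beta chain RNA.

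H2-DMa was lower per H2-Ab1 in each AZ876 library. The ratio of H2-DMa to H2-Ab1 was 0.206, 0.229 and 0.233 with AZ876, against 0.440, 0.502 and 0.297 with injury, a difference of −0.86 on the log2 scale with no overlap of the groups. The two-sided exact permutation p was 0.1, the smallest possible, and 0.25 after Benjamini-Hochberg adjustment over the 10 ratios, so no ratio could pass. The ratios of DM to DO genes overlapped between the groups: H2-DMa to H2-Oa was 18.4 ± 2.37 with AZ876 and 18.8 ± 5.45 with injury (SD, n = 3 each, exact permutation p = 1), and H2-DMb1 to H2-Ob was 4.98 ± 1.48 with AZ876 and 4.05 ± 0.569 with injury (exact permutation p = 0.4). H2-Ab1 to Ciita was 31.1 ± 5.57 with AZ876 and 29.0 ± 9.02 with injury (exact permutation p = 0.6).

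**Figure D3:**
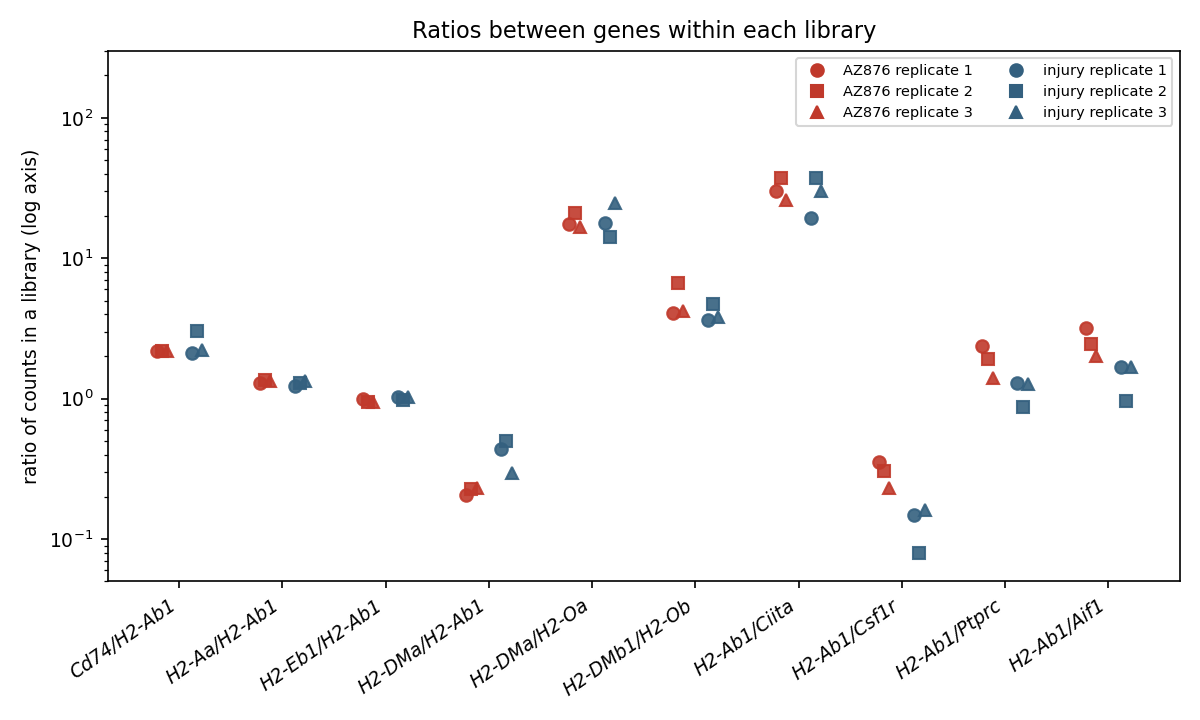
Ratio of the counts of 2 genes in each library on a log axis, AZ876 on the left of each pair and injury on the right. Ratios among Cd74 and the classical chains lie close together across libraries, while H2-DMa/H2-Ab1 is lower in every AZ876 library than in any injury library. H2-Ab1 over each of the myeloid genes Csf1r and Aif1, and over the leukocyte gene Ptprc, is higher in every AZ876 library.

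Set against 3 genes of the cells that can carry class II, 2 myeloid and 1 of leukocytes at large, H2-Ab1 was higher per gene in each AZ876 library. Csf1r encodes the receptor for the macrophage growth factor CSF1, and the ratio of H2-Ab1 to Csf1r was 0.352, 0.306 and 0.232 with AZ876, against 0.147, 0.0795 and 0.162 with injury. For Ptprc, which encodes the leukocyte antigen CD45, the ratio was 2.37, 1.91 and 1.40 with AZ876, against 1.28, 0.878 and 1.27 with injury. For Aif1, a gene of microglia and macrophages, it was 3.21, 2.46 and 2.02 with AZ876, against 1.69, 0.967 and 1.69 with injury. These differences were 1.24, 0.72 and 0.84 on the log2 scale, none with overlapping groups, and each had an exact permutation p of 0.1 and an adjusted p of 0.25 over the 10 ratios.

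Over all 9 pan-myeloid markers, a comparison added after the values were seen, the ratio of H2-Ab1 to the marker did not overlap between the groups for 4 and overlapped for 5. The fourth without overlap was Spi1, a myeloid transcription factor gene, at 3.94, 3.16 and 2.08 with AZ876, against 2.07, 1.18 and 1.83 with injury. Among those that overlapped, H2-Ab1 to Cd68, a lysosomal gene of macrophages, was 0.472, 0.341 and 0.201 with AZ876, against 0.268, 0.107 and 0.214 with injury, where AZ876 replicate 3 lay below injury replicates 1 and 3. Itgam, Tyrobp, Fcer1g and Laptm5 were the others that overlapped.

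The summed level of the 10 class II genes was 725, 893 and 751 CPM in AZ876 replicates 1, 2 and 3, against 335, 220 and 442 CPM in injury replicates 1, 2 and 3. The summed level of 9 pan-myeloid markers was 1378, 2112 and 2804 CPM with AZ876, against 1221, 1499 and 1724 CPM with injury. AZ876 replicate 1 was therefore among the injury libraries for myeloid genes but above all of them for class II, and the highest library was AZ876 replicate 3 for myeloid genes and AZ876 replicate 2 for class II. For all 9 pan-myeloid markers the log2 fold change was positive, where 50.5% of all genes tested were positive, and the median was 0.58. Of the 9, 3 were higher at an unadjusted p under 0.05 in edgeR, where 7.98% of all genes were. Ptprc (log2 fold change of 0.74) and Aif1 (0.63) were first among them. The part of these markers in the class II result was not tested.

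**Figure D4:**
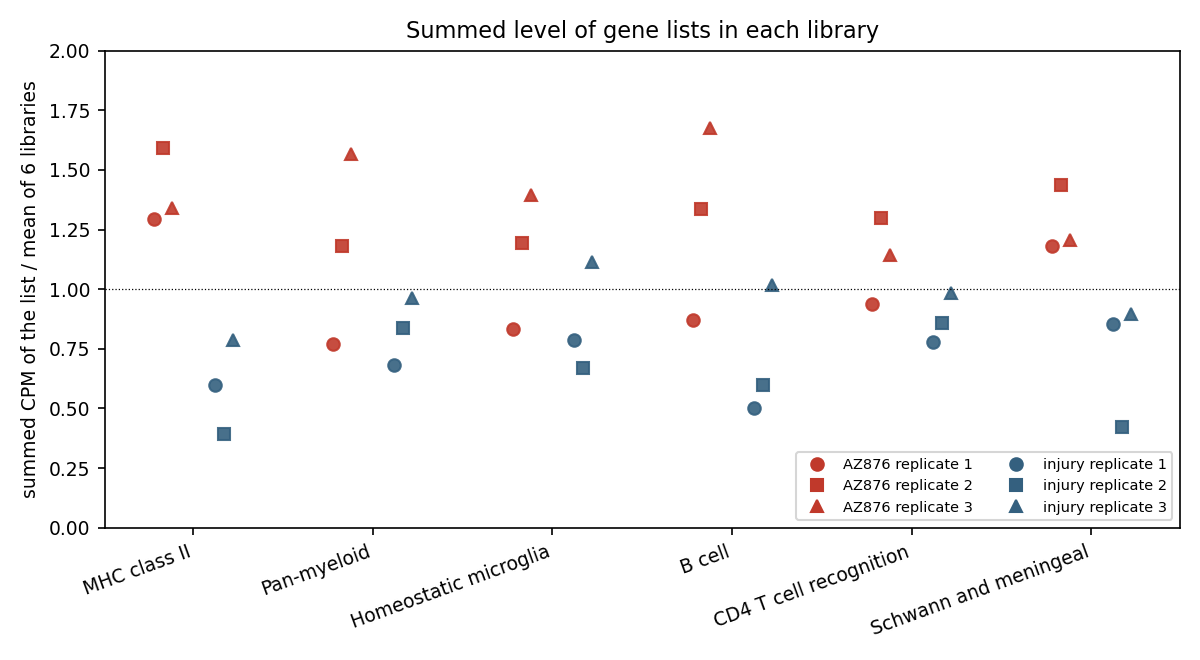
Summed CPM of the genes of 6 lists in each library, divided by the mean of the 6 libraries for that list, with AZ876 left and injury right. Class II and the Schwann and meningeal genes separate the groups and have AZ876 replicate 2 highest, while the other 4 lists overlap between groups. Lag3 makes up most of the CD4 T cell recognition sums, and Cd22 most of the B cell sums.

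Lists for the steps around class II, for the cells that carry or meet it and for the tissue held 139 genes found, of which 126 were tested. In edgeR 0 of the 126 passed the adjusted threshold, 46 had an unadjusted p under 0.05, where 14.7% of all genes had one in either direction, and DESeq2 called 8, where it called 1.01% of all genes. The counts at an unadjusted p given below for each list stand against 7.98% of all genes higher and 6.74% lower. Counts of positive log2 fold changes stand against 50.5% of all genes tested. Counts of groups that did not overlap stand against 10.2% of all genes higher and 8.64% lower. Of 11 genes of the RFX, NF-Y, CREB and coactivator set, 8 were positive in log2 fold change, the median was 0.02, and 2 were higher at an unadjusted p under 0.05, Atf1 (0.54 ± 0.17, SE) and Creb1 (0.46 ± 0.19), which encode related CRE-binding factors. The 3 genes of the RFX complex had log2 fold changes near or below 0: Rfx5 was at 9.51 ± 2.60 CPM with AZ876 and 11.8 ± 1.34 CPM with injury, Rfxap at 25.2 ± 1.91 CPM with AZ876 and 28.8 ± 3.47 CPM with injury, and Rfxank at 11.4 ± 0.408 CPM with AZ876 and 11.8 ± 1.38 CPM with injury (SD, n = 3 each).

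Interferon-gamma is the best known inducer of Ciita, in part through IRF1. Its gene, Ifng, had 2, 2 and 0 counts with AZ876 and 0 in each injury library. The log2 fold change was positive for all 10 tested genes of that route, their median was 0.44, and 3 had an unadjusted p under 0.05. Irf1 was at 28.0 ± 5.86 CPM with AZ876 and 16.2 ± 4.46 CPM with injury (SD, n = 3 each), a log2 fold change of 0.79 ± 0.24 (SE), and AZ876 replicate 1 lay just below injury replicate 3. Ifngr2, a receptor chain, was at 49.7 ± 5.81 CPM with AZ876 and 36.9 ± 3.86 CPM with injury (SD, n = 3 each).

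All 11 genes of endolysosomal processing were positive in log2 fold change, the median was 0.49 and 4 had an unadjusted p under 0.05. The groups did not overlap for 1 of the 11, Ctsk (1.04 ± 0.38, SE), near the 10.2% of all genes with AZ876 higher. Ctss, the protease that removes the invariant chain, was at 862, 1327 and 1753 CPM with AZ876, against 655, 861 and 1093 CPM with injury. Ifi30, which encodes a thiol reductase of antigen unfolding, was at 28.1, 42.1 and 55.3 CPM with AZ876, against 17.7, 21.4 and 28.7 CPM with injury. In both genes AZ876 replicate 1 lay among the injury libraries, or just below the highest of them, and AZ876 replicate 3 was highest, unlike the class II chains. Genes of class II turnover and transport had a median of −0.02 over 8 genes, 0 of them higher and 1 lower, Kif5b (−0.45 ± 0.15), at an unadjusted p under 0.05, with Ap2m1 next at −0.14 ± 0.13. Marchf1, the ubiquitin ligase that removes class II from the surface, was at 16.7, 17.3 and 20.1 CPM with AZ876, against 14.5, 17.8 and 17.6 CPM with injury.

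Genes of costimulation and checkpoint ligands, which give T cells activating or inhibiting signals, had a positive log2 fold change in 5 of 6 tested members of 9. Their median was 0.59. At an unadjusted p under 0.05, 4 were higher, among them Cd274 (0.52 ± 0.22, SE), which encodes an inhibitory ligand. Cd80 was at 4.38, 7.17 and 5.13 CPM with AZ876, against 2.45, 2.42 and 2.80 CPM with injury, and Cd86 was at 17.6, 24.3 and 30.5 CPM with AZ876, against 12.9, 16.1 and 16.8 CPM with injury. Neither overlapped between groups, although Cd86 was near to it. Genes of CD4 T cell recognition, the receiving side of class II, were positive in 11 of 11 tested members of 14, with a median of 1.41 and 6 at an unadjusted p under 0.05. Cd4 itself, which T cells and some myeloid cells express, was at 3.62, 5.55 and 7.17 CPM with AZ876, against 0.538, 0.893 and 3.45 CPM with injury. The summed level of that list overlapped, at 66.3 to 91.6 CPM with AZ876 and 54.9 to 69.5 CPM with injury. Most of each sum came from 1 gene, Lag3, at 41.7, 57.3 and 48.0 CPM with AZ876, against 47.1, 51.2 and 48.6 CPM with injury. For 7 of the 11 tested members the groups did not overlap, with AZ876 higher, where 10.2% of all genes had this. Trbc1 was at 2.12, 2.67 and 1.86 CPM with AZ876, against 0.685, 0.630 and 0.845 CPM with injury. Trbc2, like Trbc1 a constant gene of the T cell receptor, was at 3.13 ± 0.709 CPM with AZ876 and 0.904 ± 0.503 CPM with injury. These levels rest on few counts, 7 to 56 in a library for Trbc2.

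Among the cells that carry class II, B cell markers were positive in 7 of 7 tested members of 9, with a median of 1.00, and 4 had an unadjusted p under 0.05. Their summed level was 30.8 to 59.4 CPM with AZ876 and 17.7 to 36.1 CPM with injury, and no marker was at 0 in all libraries. Most of each sum came from 1 gene, Cd22, at 20.1, 35.4 and 46.5 CPM with AZ876, against 13.5, 17.6 and 26.7 CPM with injury. For 3 of the 7 tested markers the groups did not overlap, with AZ876 higher, where 10.2% of all genes had this. Cd79a, a chain of the B cell receptor complex, was at 1.78, 2.95 and 3.03 CPM with AZ876, against 0.978, 0.788 and 1.63 CPM with injury, and the groups did not overlap. Cd79b, the partner chain of Cd79a, had a log2 fold change of 0.88 ± 0.35 (SE). Dendritic cell markers were positive in 8 of 9 tested members of 11, with a median of 0.64 and 1 at an unadjusted p under 0.05, Ccr7, the receptor that leads dendritic cells to lymph nodes (1.78, 2.18 and 3.73 CPM with AZ876, against 0.0489, 0.420 and 1.30 CPM with injury). Ccr7 rests on few counts, 26, 31 and 64 with AZ876 and 1, 8 and 20 with injury. The summed level of the dendritic cell markers was 121 to 191 CPM with AZ876 and 103 to 136 CPM with injury. Most of each sum came from Itgax, the gene of CD11c, at 76.1, 110 and 145 CPM with AZ876, against 66.4, 70.2 and 92.9 CPM with injury. The log2 fold change of Itgax was 0.53 ± 0.24. Flt3, which encodes a dendritic cell growth factor receptor, was at 12.5 ± 3.50 CPM with AZ876 and 16.8 ± 3.26 CPM with injury (SD), and overlapped.

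Monocyte markers were positive in 7 of 8 tested members of 9, with a median of 0.98 and 4 at an unadjusted p under 0.05. Their summed level was 748 to 860 CPM with AZ876 and 443 to 632 CPM with injury, a separation that rests on Fn1, the fibronectin gene, with 573 to 726 CPM of the AZ876 sums. Without Fn1, a sum added after the values were seen, the markers came to 134, 160 and 175 CPM with AZ876, against 115, 135 and 142 CPM with injury, which overlap. Fn1 and Itgal, an integrin gene of leukocytes, had log2 fold changes of 0.63 ± 0.20 and 1.04 ± 0.33. Border-associated macrophage markers were positive in 7 of 8 tested members of 9, with a median of 0.58 and 2 at an unadjusted p under 0.05, with Mrc1, the mannose receptor gene, at 30.7, 41.9 and 48.5 CPM with AZ876, against 21.2, 12.7 and 19.6 CPM with injury, and Ms4a7 at a log2 fold change of 1.26 ± 0.48. Of the 8 tested border-associated markers, the groups did not overlap for 1, Mrc1, near the 10.2% of all genes with AZ876 higher. Lyve1 was the negative marker, at −0.41 ± 0.51, and Cd163 was near 0, at 0.07 ± 0.35 (SE). Both overlapped between groups. Homeostatic microglia markers were positive in 8 of 9, with a median of 0.39. At an unadjusted p under 0.05, 1 was higher, Gpr34 (0.65 ± 0.26), and 1 lower, Siglech (−0.62 ± 0.20). P2ry12, the receptor that defines resting microglia, was at 27.5 ± 0.442 CPM with AZ876 and 25.9 ± 3.49 CPM with injury, and Siglech was lower in each AZ876 library, at 12.3, 9.77 and 8.33 CPM, against 17.9, 15.1 and 13.9 CPM with injury. Summed levels were 852 to 1429 CPM with AZ876 and 686 to 1141 CPM with injury for homeostatic microglia, and 219 to 426 CPM with AZ876 and 168 to 227 CPM with injury for border-associated macrophages. The part of these cell types in the class II result was not tested.

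**Figure D5:**
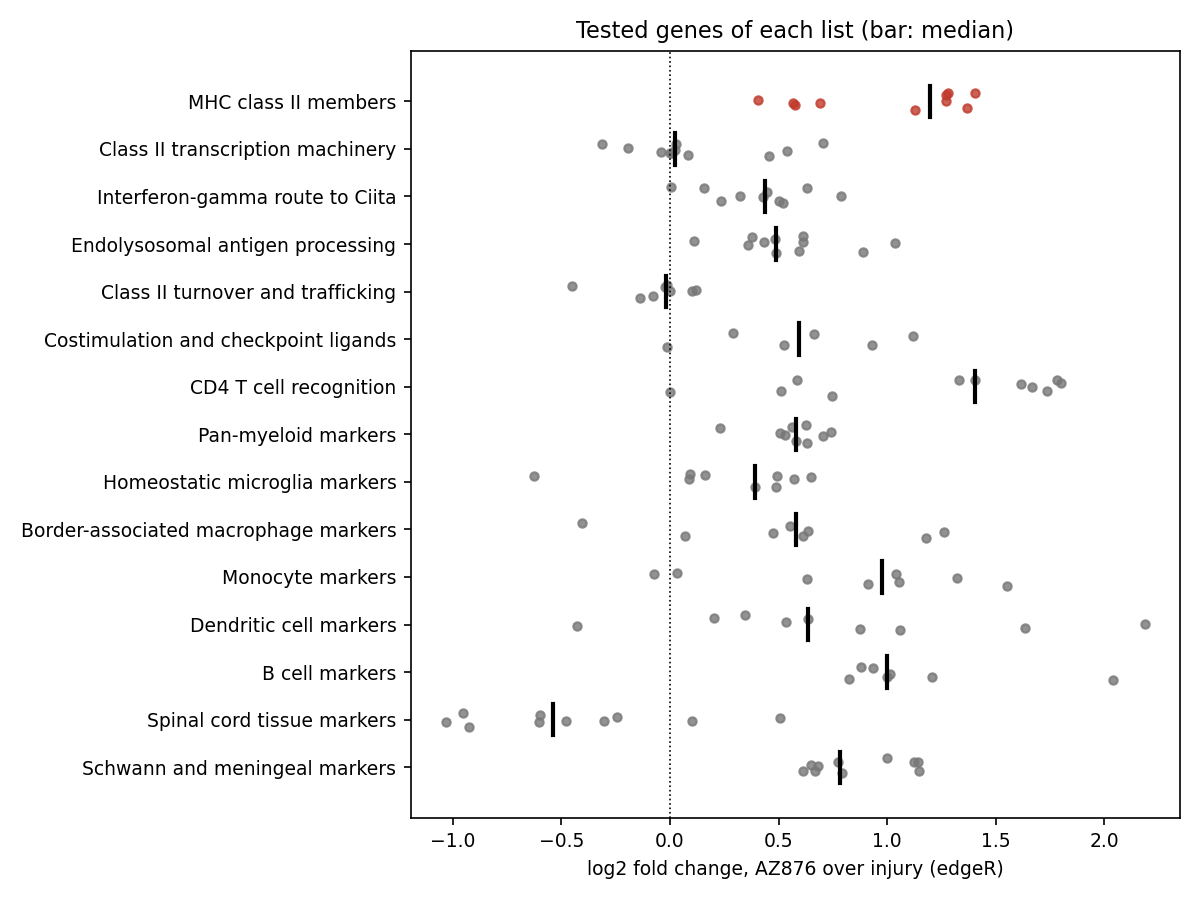
Log2 fold change of AZ876 over injury from edgeR for each tested gene of 15 lists, with the median as a bar and the class II genes in red at the top. The class II median is 1.20, the class II transcription machinery and turnover lists are centred near 0, and spinal cord tissue markers lie mostly below 0.

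For Schwann cell and meningeal genes the log2 fold change was positive in 10 of 10, where 50.5% of all genes tested were positive. The median was 0.78, and 8 were higher at an unadjusted p under 0.05, where 7.98% of all genes were. The groups did not overlap for 9, with AZ876 higher, where 10.2% of all genes had this. Their summed level was 4152, 5040 and 4235 CPM with AZ876, against 3003, 1488 and 3141 CPM with injury, lowest in injury replicate 2, as for class II. Scn7a, a sodium channel gene, had a log2 fold change of 1.15 ± 0.19, and Slc6a20a, a transporter gene, 1.14 ± 0.20. Spinal cord tissue markers were positive in 2 of 10, with a median of −0.54, and 3 were lower at an unadjusted p under 0.05, where 6.74% of all genes were, among them the neuronal genes Nefh (−0.93 ± 0.27) and Slc6a5 (−1.03 ± 0.37). The part of these tissues in the class II result was not tested.

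The 10 genes most like the class II pattern were picked among genes outside the group with a mean of at least 5 CPM. Symbols of predicted genes, Gm with a number or ending in Rik, were left out. The measure was the correlation of log2 CPM over the 6 libraries with the mean of Cd74, H2-Aa, H2-Ab1 and H2-Eb1. The 10 were Gldn, Efemp1, Hltf, Zdhhc6, Gask1b, Foxc1, Twsg1, Rcn1, Ecm2 and Col28a1, with Pearson r from 0.991 to 0.999 over 6 libraries that fall into 2 groups, a description of these libraries only. Log2 fold changes ran from 0.24 ± 0.12 for Zdhhc6 and 0.32 ± 0.12 for Hltf to 1.39 ± 0.30 for Col28a1 (SE). The genes described next are examples and do not stand for all 10. Gldn, which encodes gliomedin, a Schwann cell protein of the node of Ranvier, was at 24.1, 28.3 and 24.6 CPM with AZ876, against 14.6, 10.5 and 17.4 CPM with injury. Efemp1, a matrix gene of fibroblasts and meninges, was at 82.8, 106 and 85.4 CPM with AZ876, against 40.0, 20.7 and 52.3 CPM with injury. Foxc1, a transcription factor gene needed for the meninges, was at 44.9, 50.9 and 48.7 CPM with AZ876, against 28.2, 22.2 and 32.2 CPM with injury.

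Of the 10 genes, 8 lie on chromosome 17 within 224335 bases in the table's coordinates (34311314 to 34535648), interleaved with other genes. The log2 fold change was positive for all 6 further tested genes of the interval, where 50.5% of all genes tested were positive. Of the 6, 3 were higher at an unadjusted p under 0.05 in edgeR, where 7.98% of all genes were. Psmb9, which encodes an immunoproteasome subunit, was at 15.4, 19.7 and 18.5 CPM with AZ876, against 9.64, 7.40 and 13.9 CPM with injury, a log2 fold change of 0.79 ± 0.25 (SE). Tap1 and Tap2, the peptide transporter genes of MHC class I, had log2 fold changes of 0.54 ± 0.19 and 0.57 ± 0.19, and Psmb8 had 0.43 ± 0.23. Brd2, a chromatin reader gene that overlaps H2-DMa, was at 195 ± 7.88 CPM with AZ876 and 186 ± 12.4 CPM with injury (SD, n = 3 each), a log2 fold change of 0.07 ± 0.11.

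Outside the 10, 37 genes of the RefSeq table held GNAAC before TGATTGG at the stated spacing on their own strand, among them H2-Eb2, and 21 of the 37 were tested here. Their median log2 fold change was −0.07, and 10 of the 21 were positive, where 50.5% of all genes tested were. At an unadjusted p under 0.05 in edgeR, 0 were higher and 2 lower, where 7.98% of all genes were higher and 6.74% lower. Of the 5 class II genes with the pair, H2-Aa, H2-Eb1 and H2-DMb1 had an unadjusted p under 0.05, and H2-Oa and H2-Ob did not.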

How the data were processed

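The data were 1 table of raw read counts per gene as deposited by the authors, with 1 column per library and no normalisation. Tools listed in the submitters' processing notes are HISAT2 2.1.0 and fastp 0.23.0; how reads were counted, with what strand setting, build and annotation, is not given in the sources used here. Count columns were matched to samples by library name and samples to groups by title. The table's 57010 rows held 148 symbols on more than 1 row, all with identical counts, and 1 row per symbol was kept. Low counts were removed with filterByExpr by group (CPM of about 0.604 in 3 libraries), libraries were scaled by TMM, and AZ876 was tested against injury with edgeR 4.0.16 (R 4.3.3), robust quasi-likelihood, no covariates, Benjamini-Hochberg adjustment over 17599 genes. The SE is the log2 fold change over the square root of F. limma 3.58.1 (voom) and DESeq2 1.42.0 were alternatives. Log2 CPM used a prior count of 2. Exact tests ran over the 20 label assignments. Transcript lengths and 100-base stretches came from GENCODE M21 principal transcripts. Whether each library is a separate animal is not labelled, and p-values thus cover the spread of these libraries, which may be technical. Pairs of libraries differed by 13.1 to 120 in chi-square per degree of freedom, so none was a copy of another. Scripts were tested on simulated counts. The members and lists were chosen with earlier results of these data known. Beside the 10 members, named genes are the 2 of smallest p per list with a mean of at least 1 CPM, genes set by name, and those most like the class II pattern. Mbp, Gfap, H2-Ea, H2-Eb2 and the genes between the members on chromosome 17 fall outside that rule and were chosen after their values were seen. The same holds for Lyve1 and Cd163. Some genes set by name are not reported here.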

Additional observations from a re-analysis of the deposited data

How the results depend on the processing

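All 10 class II genes kept a positive log2 fold change under every alternative run: median-of-ratios or total-count scaling, DESeq2, limma-voom, no low-count filter, the replicate block and leaving out each library. Their median ran from 0.87 to 1.39 on leaving out a library. The number past the threshold was 5 in DESeq2 and 0 to 1 on leaving out a library, and the number at an unadjusted p under 0.05 was 6 to 8. Over all genes, 177 passed in DESeq2, 6 with no low-count filter and 0 to 363 on leaving out a library (363 without AZ876 replicate 1), while 986 to 4634 genes had an unadjusted p under 0.05. For the related lists 8 genes passed in DESeq2, 2 with no low-count filter and 0 to 5 on leaving out a library, and 21 to 70 had an unadjusted p under 0.05, against 46 with all libraries. The cause of these shifts was not tested. Cd74/H2-Ab1, H2-DMa/H2-Oa and H2-Ab1/Ciita changed direction on leaving out a library: the log2 difference of AZ876 minus injury ran from −0.25 to 0.019 for Cd74/H2-Ab1 (positive without injury replicate 2), −0.15 to 0.24 for H2-DMa/H2-Oa (negative without injury replicate 2 or AZ876 replicate 2) and −0.031 to 0.37 for H2-Ab1/Ciita (negative without injury replicate 1).

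With the replicate number as a block, 2 genes passed over all genes and 0 of the 10, 3973 genes and 74 of the related lists had an unadjusted p under 0.05, and the lowest adjusted p of the 10 was 0.0677. Whether the numbers pair the libraries cannot be told from 3 libraries a group. Deviations from group means correlated at 0.39, −0.14 and 0.32 for numbers 1, 2 and 3. AZ876 replicates 1 and 3 correlated best with the injury library of their own number, and AZ876 replicate 2 with injury replicate 3 (0.34). Ciita, H2-Oa and H2-DMb2 rest on 13 to 82 counts a library, which limits their precision.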
